A study of Mus musculus with 14 samples.

Results

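The genes followed here encode the nuclear part of oxidative phosphorylation in natural killer (NK) cells, the innate lymphocytes that kill tumour and infected cells. They were chosen by name from the count table of the NK libraries, as every gene whose symbol marks it as a subunit, or as an assembly factor of the same naming family, of complexes I to IV, cytochrome c or the ATP synthase. The rule found 88 of the 10210 genes in the table. The name pattern itself used no measured value, though it was chosen with earlier results of these data known. Uqcrb was kept apart because its level followed a division between libraries that is described below, which left 87 genes, and 85 of these passed a filter on low counts and were tested among 8471 genes. The other two, Cox6a2 and Cox6b2, reached at most 14 and 11 counts in any library.

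Oxidative phosphorylation takes place in the inner mitochondrial membrane. Complex I (symbols beginning with Nduf) takes electrons from NADH and complex II (Sdh) takes them from succinate. Complex III (Uqcr and Cyc1) hands them through cytochrome c to complex IV (Cox), which passes them to oxygen, and the ATP synthase (Atp5) uses the proton gradient built up on the way to make ATP. The central subunits of complexes I, III and IV and of the membrane part of the ATP synthase also include proteins encoded by mitochondrial DNA, and none of those genes is listed in the table. In NK cells this pathway is known to supply energy for cytokine production and killing, beside glycolysis.

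The study sorted NK cells from 3 spleens of healthy BALB/c mice, from 4 spleens of BALB/c mice carrying a 4T1-GFP tumour and from 4 such tumours. The 4T1 line is a transplantable mouse mammary carcinoma that stands for triple-negative breast cancer, and GFP is the fluorescent label of the injected cells. Mice were 8 weeks old, and the tumour was started by an injection of 100000 cells into a mammary fat pad of females; the sex of the healthy mice and the day of collection are not given in the labels. No group carried a genetic modification of the host. All 3 groups were sorted alike, as CD45 and NKp46 positive cells negative for GFP, EPCAM, CD3, CD31 and CD14. Tumour tissue went through an enzyme digestion (collagenase A with DNase) at 37 °C and spleens were instead crushed, with red cells lysed on ice, so tissue and preparation cannot be told apart. The replicates are called independent, but the labels do not say whether a spleen and a tumour came from the same mouse.

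The libraries held between 559688 and 1966963 counts over the listed genes, the least in healthy spleen replicate 1. A limit of 3 counts corresponded to 1.54 to 4.62 CPM, counts scaled to a common library size by TMM. Along the second principal component of all tested genes the 7 spleen libraries divided into 2 sides. Side A held healthy replicate 1 and tumour-bearing replicates 1 and 2, and side B held healthy replicates 2 and 3 and tumour-bearing replicates 3 and 4. The labels name no batch. The NK marker list (14 of 15 listed, among them Ncr1, Nkg7 and Prf1) summed to 29400 to 30500 CPM in healthy spleen, 29500 to 32600 CPM in tumour-bearing spleen and 22800 to 27600 CPM in tumour. Marker sums of some other cells were higher in the tumour libraries, at 44.7 to 259 CPM against 17.5 to 28.8 CPM in tumour-bearing spleen for 8 of 12 macrophage and monocyte genes, 61.5 to 158 CPM against 1.45 to 13.4 CPM for 5 of 10 neutrophil genes, and 27.7 to 54.9 CPM against 0 to 2.79 CPM for Epcam and Cdh1, the 2 of 9 carcinoma genes listed. The listed fibroblast genes (Col1a2, Col3a1 and Thy1) summed to 720 to 937 CPM in tumour and 366 to 534 CPM in tumour-bearing spleen, and the endothelial gene Pecam1 stood at 139 to 202 CPM and 74.8 to 94.2 CPM. Those of T cells (4 of 9 listed) overlapped, at 91.3 to 164 CPM in tumour and 113 to 155 CPM in tumour-bearing spleen, as did those of dendritic cells (2 of 8 listed), at 178 to 248 CPM and 245 to 324 CPM. The B cell gene Cd79b was lower in tumour, at 1.45 to 3.8 CPM against 3.91 to 6.1 CPM, and no erythroid marker was listed. None of the listed markers was at 0 in all tumour libraries, and the part of these cells in the results below was not tested. Whether the marker counts came from such cells or from the NK cells was not tested either. In bulk RNA, fewer cells of a type and less RNA per cell cannot be told apart.

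In tumour NK cells against NK cells of tumour-bearing spleens, a few of the oxidative phosphorylation genes rose or fell. With TMM scaling this was a smaller share than among all genes tested, but some other settings nearly closed the gap. Of the 85 genes tested, 6 were higher in tumour and 5 lower by edgeR's quasi-likelihood test, with p adjusted over all genes by Benjamini-Hochberg and a threshold of 0.05. That is 12.9% of the genes, where 29.0% of all genes tested were called, and the shares of all genes called higher and lower were 15.8% and 13.2%. The median log2 fold change was -0.115, against 0.0014 over all genes, and the median size of the change was 0.213, against 0.369. Only the pseudogene Ndufs5-ps reached a log2 fold change of 1 in size, whereas 13.1% of all genes did. Libraries of the 2 groups did not overlap for 12 of the genes, or 14.1%, against 29.7% of all genes. On library totals the share called was 30.6% against 32.1% of all genes. It was 24.7% against 30.9% with upper-quartile scaling, and 39.3% against 40.9% with side B as the only spleen libraries. The gap stayed wider with DESeq2 (16.5% against 25.5%) and with an offset for GC content and transcript length (17.6% against 31.2%). With side A only it was 5.88% against 22.8%.

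The 6 genes that rose were 3 subunits of the ATP synthase, 2 of complex IV and the supercomplex factor Cox7a2l. Of the 17 ATP synthase subunits, 3 were higher and 1 was lower, with a median of 0.04. The share called higher lay near the 15.8% of all genes, and the share called lower was below their 13.2%. Atp5d encodes the delta subunit of the rotating central stalk. It stood at 538, 660.2 and 702 CPM in the healthy spleen libraries, 694, 675, 817 and 861 CPM in the tumour-bearing spleen libraries and 1021, 1052, 1471 and 1125 CPM in the tumour libraries. Every tumour library lay above every spleen library (log2 fold change 0.62, SE 0.15, adjusted p = 0.00456). Atp5md, which encodes a small membrane subunit that takes part in joining ATP synthase dimers, stood at 70.9, 63.1 and 57.8 CPM in the healthy spleen libraries, 117, 59.2, 60.2 and 83.9 CPM in the tumour-bearing spleen libraries and 152, 155, 129 and 119 CPM in the tumour libraries. Here too the tumour libraries lay above all others, with tumour-bearing replicate 1 the nearest (log2 fold change 0.80, SE 0.19, adjusted p = 0.00329). Atp5a1 encodes the alpha subunit of the catalytic F1 head. Its tumour libraries, at 551, 588, 533 and 553 CPM, were above the tumour-bearing spleen libraries, at 482, 442, 380.4 and 377 CPM (log2 fold change 0.41, SE 0.13, adjusted p = 0.0231). The beta subunit of the same head, Atp5b, did not pass (log2 fold change 0.15, SE 0.14, adjusted p = 0.456). In the other direction, Atp5h, subunit d of the peripheral stalk, stood at 1069, 1020, 1312 and 1352 CPM in tumour-bearing spleen and 784, 767, 1109 and 827 CPM in tumour. Tumour replicate 3 lay within the spleen range, and the call lay just under the threshold (log2 fold change -0.45, SE 0.17, adjusted p = 0.05 after rounding).

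Of the 12 complex IV subunits tested, 2 were higher and none lower, with a median of -0.0614. Here too the share called higher lay near the 15.8% of all genes. Cox5a, a nuclear subunit on the matrix side of the enzyme, stood at 199, 181 and 212 CPM in the healthy spleen libraries, 392, 323, 226 and 236 CPM in the tumour-bearing spleen libraries and 524, 335, 430.5 and 389 CPM in the tumour libraries. The tumour and tumour-bearing ranges overlapped, since tumour-bearing replicate 1 lay above tumour replicates 2 and 4 (log2 fold change 0.52, SE 0.17, adjusted p = 0.0304). Cox7a2, the broadly expressed form of subunit 7a, stood at 437, 394, 366 and 357 CPM in tumour-bearing spleen and 533, 430.4, 581 and 566 CPM in tumour. Tumour replicate 2 fell just below tumour-bearing replicate 1 (log2 fold change 0.45, SE 0.14, adjusted p = 0.0188). Cox7a2l, a relative of the 7a subunits that links complex III to complex IV in supercomplexes, stood at 173, 185 and 239 CPM in the healthy spleen libraries, 234, 208, 214 and 231 CPM in the tumour-bearing spleen libraries and 349, 297, 312 and 324 CPM in the tumour libraries. All 4 tumour libraries lay above all spleen libraries (log2 fold change 0.53, SE 0.13, adjusted p = 0.00366). Cox4i1, the common form of subunit 4, did not pass (log2 fold change 0.03, SE 0.16, adjusted p = 0.894).

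Of the 34 complex I subunits none was higher and 3 were lower in tumour, which is 8.82% against 13.2% of all genes called lower. The 3 were accessory subunits, and over the 34 the median was -0.166 with 25 below 0. Ndufa3, a small membrane subunit, stood at 378, 383 and 480.3 CPM in the healthy spleen libraries, 619, 457, 511 and 578 CPM in the tumour-bearing spleen libraries and 386, 307, 396 and 349.9 CPM in the tumour libraries. The highest tumour library was below the lowest tumour-bearing library, but the tumour and healthy ranges overlapped (log2 fold change -0.58, SE 0.14, adjusted p = 0.00383). Ndufs6, a zinc-binding subunit of the NADH-oxidising arm, stood at 378, 336, 404 and 424 CPM in tumour-bearing spleen and 281, 233, 309.7 and 265 CPM in tumour, with no overlap (log2 fold change -0.50, SE 0.15, adjusted p = 0.0171). Ndufa12, a late-joining subunit of the same arm, stood at 66.3, 63.1, 76.7 and 73.8 CPM and 37.7, 37.7, 59.5 and 49.4 CPM, again with no overlap (log2 fold change -0.58, SE 0.18, adjusted p = 0.0232). Ndufaf3, which helps to assemble the peripheral arm, was the 1 of 6 complex I assembly factors to pass, at 62.5, 60.3, 75.2 and 73.0 CPM in tumour-bearing spleen and 46.7, 40.6, 53.5 and 41.8 CPM in tumour (log2 fold change -0.55, SE 0.16, adjusted p = 0.0154). None of the 7 core subunits passed. Among them Ndufs1, the large iron-sulfur subunit, had a log2 fold change of 0.02, and Ndufv1, which binds NADH, 0.27.

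Complexes II and III had no call in this comparison. For the flavin-binding subunit Sdha the libraries ran over 139.5, 155, 126 and 111 CPM in tumour-bearing spleen and 132, 130.4, 135 and 147 CPM in tumour, with overlapping ranges (log2 fold change 0.04, SE 0.15, adjusted p = 0.881). For the iron-sulfur subunit Sdhb the log2 fold change was -0.24, with adjusted p = 0.174. In complex III the Rieske iron-sulfur subunit Uqcrfs1 stood at 146, 197 and 194 CPM in the healthy spleen libraries, 198, 209.9, 198 and 199 CPM in the tumour-bearing spleen libraries and 274, 235, 233 and 271 CPM in the tumour libraries. Its tumour libraries lay above all spleen libraries, although the value against tumour-bearing spleen missed the threshold (log2 fold change 0.33, SE 0.13, adjusted p = 0.0554). Cytochrome c1, Cyc1, had a log2 fold change of -0.13.

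**Figure D1:**
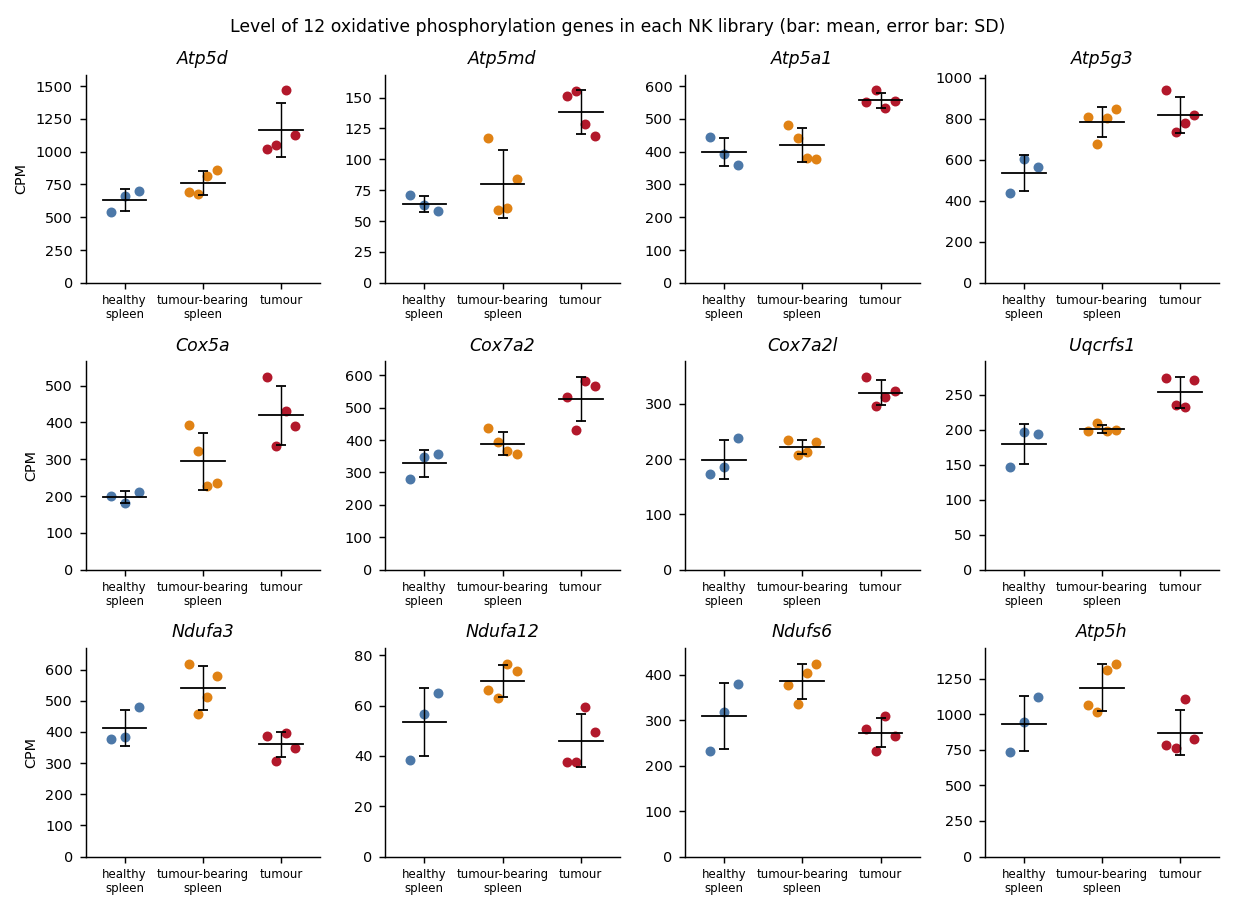
CPM (vertical axis, from 0) of 12 genes in each NK library, by group; points are libraries, horizontal bars are means and error bars are SD over 3 healthy spleen, 4 tumour-bearing spleen and 4 tumour libraries. Atp5d, Atp5md, Cox7a2l and Uqcrfs1 have every tumour library above every spleen library, and Ndufa3, Ndufa12 and Ndufs6 have every tumour library below every tumour-bearing spleen library.

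The division of the spleen libraries touched these counts. With only the side A libraries as the tumour-bearing spleen group, 3 genes were higher and 2 lower. That is 3.53% and 2.35%, where 13.8% and 9.04% of all genes were called in these directions. With only the side B libraries the counts were 12 and 21, against 22.4% and 18.5% of all genes. Called in the same direction against both sides were 4 genes, Atp5d, Atp5md, Cox7a2l and Ndufa3, or 4.76% against 18.6% of all genes, and both sides were set against the same 4 tumour libraries. They kept their call in all 21 alternative settings and left-out libraries tried. Among these settings, an offset for GC content and transcript length could not correct Atp5md, for which neither value was present. All 4 are protein-coding genes, with Atp5d at chr10:80138698-80145828, Atp5md at chr19:47083471-47090647, Cox7a2l at chr17:83501917-83514333 and Ndufa3 at chr7:3617347-3620165 (GRCm38, RefSeq). Atp5d was at 0.62 against all 4 tumour-bearing libraries, 0.76 against side A and 0.45 against side B, and Ndufa3 at -0.58 and -0.62 against the sides. The other 7 called genes (Cox5a, Cox7a2, Atp5a1, Ndufa12, Ndufaf3, Ndufs6 and Atp5h) each lost the call against side A. Their changes were also smaller there, for example 0.23 against side A and 0.84 against side B for Cox5a. All but Ndufs6 also lost it without tumour-bearing replicate 3, and all but Ndufs6 and Ndufaf3 without tumour-bearing replicate 4. Among the tumour libraries, the call was lost without replicate 1 for Cox5a, Ndufa12 and Atp5h, without replicate 2 for Atp5a1, Ndufa12, Ndufs6 and Atp5h, without replicate 3 for Cox5a and Cox7a2, and without replicate 4 for Cox7a2, Atp5a1 and Atp5h. Atp5h also lost it without healthy replicate 2. Some calls were lost under other processing too. Upper-quartile scaling removed those of Cox5a, Cox7a2 and Atp5a1, and library totals those of Cox5a and Atp5a1. The GC and length offset removed those of Ndufa12 and Atp5h. Over all settings the log2 fold change ran from 0.23 to 0.84 for Cox5a, from 0.32 to 0.60 for Cox7a2, from 0.26 to 0.52 for Atp5a1, from -0.76 to -0.36 for Ndufa12, from -0.70 to -0.40 for Ndufaf3, from -0.63 to -0.35 for Ndufs6 and from -0.64 to -0.22 for Atp5h. The size of the lower count depended on the scaling. It was 18 with upper-quartile scaling (21.2% against 18.1% of all genes) and 22 on library totals (25.9% against 20.0%). The higher count was 3 and 4, or 3.53% and 4.71%, against 12.9% and 12.1% of all genes. These scalings moved the median of all genes by -0.0994 and -0.122. With an offset for GC content and transcript length 11 genes were higher and 4 lower, and the median was 0.01. These are 12.9% and 4.71%, against 18.3% and 12.9% of all genes.

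Against healthy spleen, tumour NK cells had 15 of the 85 genes higher and 1 lower. The higher share, 17.6%, lay near the 16.5% of all genes called higher, whereas 1.18% were lower against 14.0% of all genes. The median log2 fold change was 0.147, against 0.0164 over all genes. This rested on the scaling, since library totals gave 7 genes higher, 7 lower and a median of -0.0448, and upper-quartile scaling 11, 5 and 0.0501, where the median of all genes moved by -0.197 and -0.101. The shares of all genes called under these scalings are not given here, so these counts cannot be read as above or below them. Both comparisons use the same 4 tumour libraries, so they are not independent, and the values are given side by side. Called higher against both spleen groups were 6 genes, Atp5a1, Atp5d, Atp5md, Cox5a, Cox7a2 and Cox7a2l, or 7.06% against 12.7% of all genes. Against healthy spleen their log2 fold changes were 0.48, 0.88, 1.12, 1.09, 0.68 and 0.68, with adjusted p from 0.000268 for Cox5a to 0.014 for Atp5a1. The call of Atp5a1 was lost against the side A library alone, on library totals and without healthy replicate 2 or 3.

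The other 9 genes higher than in healthy spleen were not called against tumour-bearing spleen. In the ATP synthase they were Atp5g3, Atp5pb and Atp5k. Atp5g3 encodes the c subunit of the membrane rotor, and stood at 436, 603 and 567 CPM in healthy spleen, 809, 676, 803 and 848 CPM in tumour-bearing spleen and 940.3, 736, 777 and 816 CPM in tumour (log2 fold change 0.61, SE 0.15, adjusted p = 0.00574 against healthy spleen). The tumour and tumour-bearing ranges overlapped, and both lay above the healthy range. Atp5pb encodes subunit b of the peripheral stalk (log2 fold change 0.66, SE 0.16, adjusted p = 0.00482), and Atp5k subunit e of the membrane part (log2 fold change 0.54, SE 0.20, adjusted p = 0.0434). In complex I the accessory subunits Ndufb6, Ndufb2 and Ndufab1 were higher, by 0.55, 0.53 and 0.55; Ndufab1 is the mitochondrial acyl carrier protein. Uqcrfs1 passed here (log2 fold change 0.49, SE 0.14, adjusted p = 0.0119), and so did the complex IV subunits Cox6c and Cox7c. The 1 gene that was lower, Ndufs7, encodes the core subunit of complex I that carries the last iron-sulfur cluster before quinone. It stood at 239, 308 and 349 CPM in healthy spleen and 184, 144, 286 and 202 CPM in tumour, and tumour replicate 3 lay inside the healthy range (log2 fold change -0.54, SE 0.20, adjusted p = 0.0435). Several of these calls turned on the processing or on 1 library. Library totals removed the calls of Atp5pb, Uqcrfs1, Ndufab1 and Atp5k. Those of Uqcrfs1, Ndufab1 and Atp5k were also lost with the GC and length offset and against the side B libraries only. Upper-quartile scaling removed those of Ndufab1 and Atp5k. Ndufs7 lost its call without healthy replicate 2 or 3 or without tumour replicate 1, 2 or 4 (log2 fold change from -0.77 to -0.22 over all settings), and Uqcrfs1 without healthy replicate 1 (0.26 to 0.78). Ndufab1 lost it without healthy replicate 1 or 2 or tumour replicate 1 (0.36 to 0.99), and Atp5k in 11 of 21 settings, among them those without healthy replicate 1 or 2, tumour-bearing replicate 2, and tumour replicate 1 or 4 (0.34 to 0.70). Atp5g3 and the genes Atp5d, Atp5md, Cox5a, Cox7a2 and Cox7a2l kept the call against healthy spleen in all 21.

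Between the spleens, the oxidative phosphorylation genes lay mostly higher in NK cells of tumour-bearing mice, by small amounts that no single gene carried past the threshold when all 11 libraries were fitted by group alone. By edgeR's test 0 of 85 genes were called, where 1.58% of all genes were, and 20 had an unadjusted p under 0.05, or 23.5% against 11.2% of all genes. DESeq2 called 2 of them higher, Atp5g3 and Uqcr10, which is 2.35% against 1.49% of all genes. Libraries of the 2 groups did not overlap for 16, or 18.8% against 12.2%. The log2 fold change was above 0 for 73 of the 85, or 85.9% against 49.3% of all genes, and the median was 0.264 against -0.00415. With the offset for GC content and transcript length these fell to 62 of the 85, or 72.9% against 49.7%, and a median of 0.0763. Sums of some marker lists drawn up for other cells moved with this comparison without overlap. The listed T cell genes (Cd3d, Cd3g, Cd4 and Cd28) summed to 57.0 to 89.1 CPM in healthy and 113 to 155 CPM in tumour-bearing spleen. The sums were 149 to 177 CPM and 245 to 324 CPM for the dendritic cell list (Itgax and Zbtb46). For the fibroblast list (Col1a2, Col3a1 and Thy1) they were 170 to 240 CPM and 366 to 534 CPM. Whether these counts came from such cells or from the NK cells was not tested, nor was their part in the result. By complex, the log2 fold change without the offset was above 0 for 29 of 34 complex I subunits, 3 of 4 in complex II and 6 of 7 in complex III. It was above 0 for all 12 tested in complex IV and all 17 in the ATP synthase. The 7 core subunits of complex I had 3 values above 0 and a median of -0.0614, and the 27 accessory subunits had 26 above 0 and a median of 0.267. This difference was not tested, and it too is from the fit without the offset. In the fit below with the side as a block and the offset, 61 of the 85 genes lay above 0. Cox7a2 (-0.06), Atp5j (-0.16), Atp5mpl (-0.12) and the accessory subunit Ndufa6 (-0.37) were among those below it.

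The summed counts of the 87 genes showed the same order per library. They made up 2.3%, 2.58% and 2.62% of the counts in healthy spleen replicates 1 to 3, and 3.06%, 2.75%, 2.88% and 2.92% in tumour-bearing replicates 1 to 4. By share of counts the 2 spleen groups did not overlap. On summed CPM, scaled by TMM, they did, with tumour-bearing replicate 2 at 25810 and healthy replicate 3 at 26130. The tumour libraries held 2.61%, 2.36%, 2.76% and 2.54%, and overlapped both. Healthy replicate 1, the library with the fewest counts, was also the lowest, with a median deviation of -0.387 (log2) from each gene's mean over the libraries, against -0.131 to 0.161 in the other libraries.

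**Figure D2:**
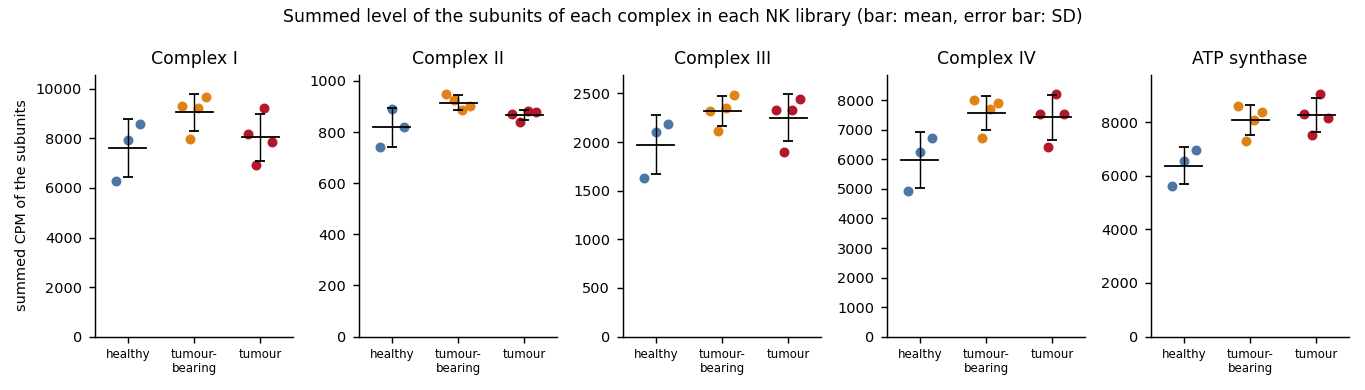
Summed CPM (vertical axis, from 0) of the subunits of each complex in each NK library, without Uqcrb; points are libraries, horizontal bars are means and error bars are SD over 3, 4 and 4 libraries. Healthy replicate 1 is the lowest point of every panel, and the tumour-bearing spleen mean lies above the healthy mean in each complex.

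Since the division of the spleen libraries cuts across both spleen groups, they were also compared with the side as a block. In that fit of the 7 spleen libraries 26 genes were higher in tumour-bearing spleen and 0 lower, which is 30.6% against 5.35% of all genes called higher. The sides were read from the levels in these same libraries, so the adjusted p-values of this fit may be too small. In either direction it called 8.34% of all genes, against 1.58% in the fit of 11 libraries without the block. Of the 85 genes, 75 lay above 0 (47.2% of all genes did), with a median of 0.253. Of the 26 genes, 10 were complex I subunits, 7 complex IV subunits, 7 ATP synthase subunits and 1 a complex III subunit, and the last was the complex III assembly factor Uqcc2. None of the 4 complex II subunits passed. Uqcr10, a small complex III subunit, stood at 293, 342 and 344 CPM in healthy and 545, 406, 468 and 594 CPM in tumour-bearing spleen, with no overlap (log2 fold change 0.66, SE 0.12, adjusted p = 0.000208). Atp5g3 stood at the levels given above (log2 fold change 0.60, SE 0.11, adjusted p = 0.000378). Ndufs8, a core iron-sulfur subunit of complex I, stood at 160.3, 202 and 187 CPM and 226, 204, 259 and 302 CPM, and its ranges did not overlap (log2 fold change 0.49, SE 0.11, adjusted p = 0.00427). Cox4i1 stood at 894, 1126 and 1223 CPM and 1292, 1128, 1425 and 1506 CPM, where tumour-bearing replicate 2 lay within the healthy range (log2 fold change 0.37, SE 0.11, adjusted p = 0.0325). Cox5a was also among the 26 (log2 fold change 0.46, SE 0.12, adjusted p = 0.0169), and so were Atp5h, Atp5k, Cox6a1, Ndufa3 and Ndufs6. With an added offset for GC content and length, Uqcr10 (log2 fold change 0.31, adjusted p = 0.036) and Atp5g3 (log2 fold change 0.35, adjusted p = 0.00691) passed. Ndufs8, at 0.30, did not (adjusted p = 0.0639), nor did Cox4i1 at 0.11, Cox5a at 0.20, Atp5h at 0.13, Atp5k at 0.23, Cox6a1 at 0.13, Ndufa3 at 0.05 and Ndufs6 at 0.13, with adjusted p from 0.176 for Atp5k to 0.801 for Ndufa3.

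This count rested on few libraries. Without healthy replicate 1 it was 3 (Atp5g3, Ndufs8 and Uqcr10), or 3.53% against 2.26% of all genes, although the median of the 85 stayed at 0.211. Without healthy replicate 2 it was 13, and in the other cases up to 27. With the added offset 8 genes were higher (9.41% against 4.64% of all genes), 7 of them among the 26. Only 1, the accessory complex I subunit Ndufa6, was lower (1.18% against 3.31%). Then 61 of the 85 lay above 0, or 71.8% against 47.1% of all genes, and the median was 0.0782. Genes of this set differ from other tested genes in these properties, with a median transcript length of 892 bases against 2922, and a GC content of the last 500 bases of 48.7% against 44.6%. Values were present for 82 of the 85 genes. Within side A, where 1 healthy and 2 tumour-bearing libraries are left, 77 genes lay above healthy spleen with a median log2 difference of 0.434. Within side B, with 2 libraries in each group, 68 did, with a median of 0.206. The number above on both sides was 64, or 75.3% against 30.1% of all genes.

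**Figure D3:**
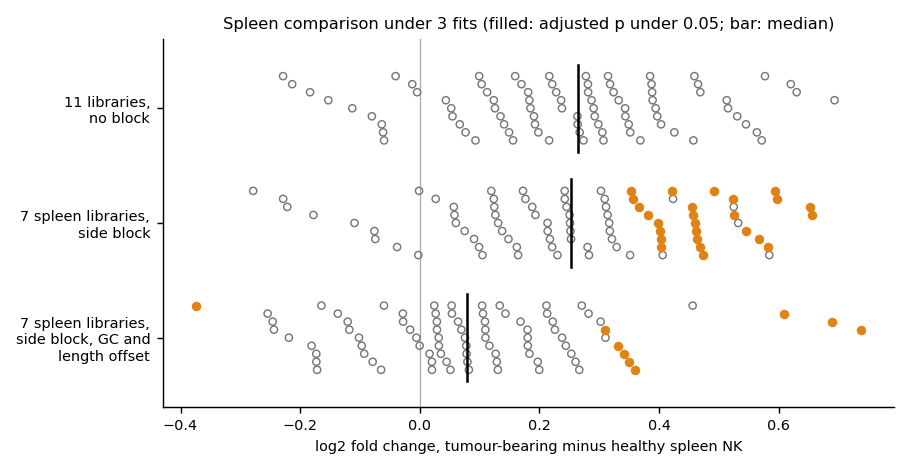
Log2 fold change (horizontal axis) of the 85 tested genes between tumour-bearing and healthy spleen NK cells under 3 fits (rows); each point is a gene, filled where its adjusted p was under 0.05, and vertical bars are medians. The median is 0.264 without a block, 0.253 with the side as a block and 0.0782 with the block and an offset for GC content and length, and the filled points number 0, 26 and 9.

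Uqcrb, which encodes the ubiquinone-binding subunit of complex III, followed the division of the spleen libraries within both spleen groups. It stood at 129, 8.56 and 6.60 CPM in the healthy spleen libraries, 152, 104, 10.8 and 10.8 CPM in the tumour-bearing spleen libraries and 144, 112, 152 and 87.5 CPM in the tumour libraries. Side A averaged 128 CPM and side B 9.21 CPM, 13.9 times less, while the tumour libraries all lay in or near the side A range. It was called in none of the 3 comparisons (log2 fold change 0.87, SE 1.00, adjusted p = 0.564 for tumour against tumour-bearing spleen). A weaker form of the same order was seen in 7 of the 85 genes, whose side A libraries all lay above the side B libraries, or 8.24% against 15.1% of all genes. Cox7b, a small complex IV subunit, averaged 404 CPM on side A and 180.4 CPM on side B, and Atp5mpl, a small ATP synthase subunit, 195 CPM and 96.5 CPM. The others were Ndufc1, Ndufaf6, Atp5j, Atp5pb and Atp5a1, at 1.72, 1.6, 1.58, 1.34 and 1.21 times. The opposite order was found for 14 genes, or 16.5% against 12.2% of all genes, 8 of them subunits or assembly factors of complex I, among which Ndufs3 averaged 55.9 CPM on side A and 84.3 CPM on side B. Cox7b, Atp5mpl, Ndufs3 and the other genes of this paragraph besides Uqcrb, Atp5a1 and Atp5pb were named after their values were seen, since they part the sides most.

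**Figure D4:**
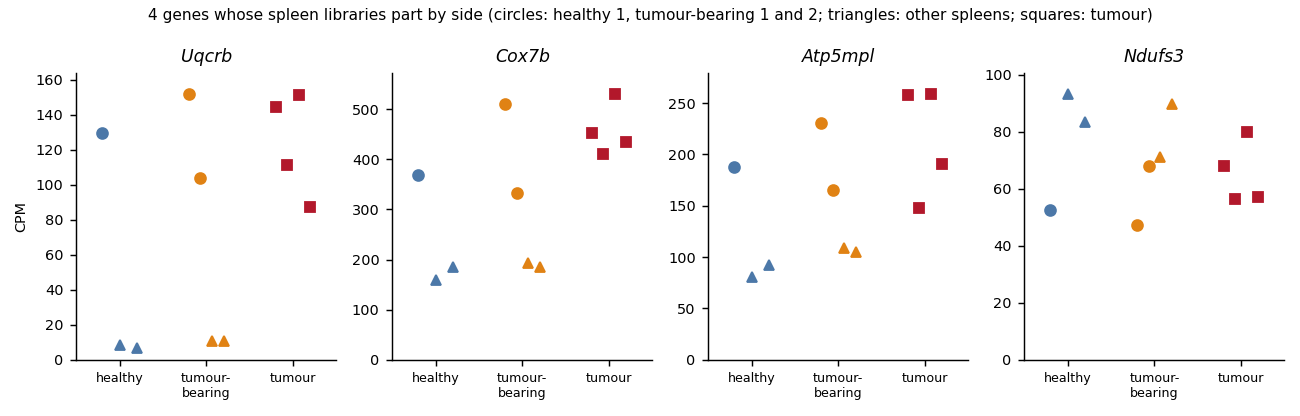
CPM (vertical axis, from 0) of Uqcrb, Cox7b, Atp5mpl and Ndufs3 in each NK library; circles are the spleen libraries of side A (healthy replicate 1, tumour-bearing replicates 1 and 2), triangles those of side B and squares the tumour libraries. Uqcrb lies between 104 and 152 CPM on side A and between 6.60 and 10.8 CPM on side B, and Ndufs3 has the opposite order.

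Several subunits exist as paralogous forms. The c subunit is encoded by Atp5g1, Atp5g2 and Atp5g3, which give the same mature protein. Atp5g1 had a log2 fold change of -0.63 against tumour-bearing spleen that did not pass the test (adjusted p = 0.137), and Atp5g2 one of -0.56 (adjusted p = 0.365), while Atp5g3 was at 0.06. In the spleen comparison with the block Atp5g1 was higher in tumour-bearing mice, at 40.1, 89.9 and 134 CPM in healthy and 112, 89.3, 147 and 158 CPM in tumour-bearing spleen, with overlapping ranges (log2 fold change 0.65, SE 0.16, adjusted p = 0.00675). The call of Atp5g1 was kept with the added GC and length offset (log2 fold change 0.74, adjusted p = 0.0149) but lost without healthy replicate 1. The tissue-restricted Cox7a1, known from heart and skeletal muscle, reached at most 11.4 CPM, near the limit of 3 counts. The heart and muscle form Cox6a2 had 44 counts and the testis form Cox6b2 53 counts over the 11 libraries together. Their common counterparts Cox6a1 and Cox6b1 were among the 26 genes higher in tumour-bearing spleen with the block (log2 fold change 0.45, SE 0.11, adjusted p = 0.00873 and log2 fold change 0.40, SE 0.12, adjusted p = 0.0271). Both calls were lost with the added GC and length offset (log2 fold changes 0.13 and 0.08) and without healthy replicate 1. Ndufa4, now placed in complex IV, passed in no comparison, and Ndufs5-ps, a pseudogene by name, stood at 50.01, 39.1, 12.03 and 8.56 CPM in tumour and 11.4, 6.14, 11.3 and 15.9 CPM in tumour-bearing spleen (log2 fold change 1.26, SE 0.65, adjusted p = 0.18). Cox4i2, Ndufa4l2, Ndufs5, Ndufa11, Uqcrq and Cycs have no value in the NK table.

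Genes of the respiratory chain are known to share promoter elements, chiefly for the factors NRF1, GABP and YY1. RefSeq start regions (250 bases before to 50 bases after the start, GRCm38.p6) were found for 73 of the 88 genes and searched on both strands. The NRF1 letters GCGCATGCGC, which read the same on both strands, were in 4 of the 73 (5.5%, against 2.59% of the tested genes and 1.07% of all genes with a window). The GABP letters CCGGAAGT were in 5 (6.8%, against 10.9% and 4.31%), and the YY1 letters AAGATGGC in 12 (16.4%, against 6.18% and 3.19%). No match shared bases with a match of another of these motifs. Of the 12 YY1 matches, 11 lay on the gene's own strand and 10 after the start. In all, 8 belonged to complex I genes and 3 to ATP synthase genes. They are shown as the motif found in the most genes of the set. In tumour against tumour-bearing spleen 0 of the 12 were higher and 2 lower (Ndufa3 and Ndufs6), 3 lay above 0, and the log2 fold changes ran from -0.58 for Ndufa3 to 0.38 for Atp5pb. Each is written 5′ to 3′ on the gene's strand, with the match in capitals (the last, in Atp5pb, is on the other strand).
Ndufs7: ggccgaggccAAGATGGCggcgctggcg
Ndufa3: cgccaagaacAAGATGGCcgggagtaag
Ndufa9: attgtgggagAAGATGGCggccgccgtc
Ndufb8: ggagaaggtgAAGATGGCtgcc
Ndufc1: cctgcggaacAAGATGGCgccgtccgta
Ndufs4: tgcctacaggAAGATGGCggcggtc
Ndufs6: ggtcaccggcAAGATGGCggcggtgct
Ndufaf8: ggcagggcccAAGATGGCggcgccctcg
Uqcc2: agcggggcccAAGATGGCcgctctccgc
Atp5j: aagtgtaggaAAGATGGCggagtcttag
Atp5j2: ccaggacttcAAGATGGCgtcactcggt
Atp5pb: tgtgcgagcgGCCATCTTgctcctgccc
The stretches are Ndufs7 at chr10:80249463-80249490, Ndufa3 at chr7:3617385-3617412, Ndufa9 at chr6:126849098-126849125, Ndufb8 at chr19:44555393-44555414, Ndufc1 at chr3:51408916-51408943, Ndufs4 at chr13:114388045-114388069, Ndufs6 at chr13:73328433-73328459, Ndufaf8 at chr11:120098934-120098961, Uqcc2 at chr17:27133863-27133890, Atp5j at chr16:84835047-84835074, Atp5j2 at chr5:145191501-145191528 and Atp5pb at chr3:105959249-105959276.

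For 3 genes called higher in tumour-bearing spleen with the block, though not with the added GC and length offset or without healthy replicate 1, the 250 bases before the start held an NRF1 match (Atp5k and Cox6a1) or a GABP match (Atp5h), in capitals below. They are set beside Atp5md, whose window had no match. Each lies on the minus strand and is written 5′ to 3′ on it, at chr5:108434400-108434649, chr5:115348959-115349208, chr11:115419920-115420169 and chr19:47090648-47090897.
Atp5k: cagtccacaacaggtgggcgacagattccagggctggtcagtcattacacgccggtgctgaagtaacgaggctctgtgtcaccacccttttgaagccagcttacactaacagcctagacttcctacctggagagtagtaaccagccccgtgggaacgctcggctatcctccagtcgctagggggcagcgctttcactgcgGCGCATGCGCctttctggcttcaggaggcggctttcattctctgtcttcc
Cox6a1: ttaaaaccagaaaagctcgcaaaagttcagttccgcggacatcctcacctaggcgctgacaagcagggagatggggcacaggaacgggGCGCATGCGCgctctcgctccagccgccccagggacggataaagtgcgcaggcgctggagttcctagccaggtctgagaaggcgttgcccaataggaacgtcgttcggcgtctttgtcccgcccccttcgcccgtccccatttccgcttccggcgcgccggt
Atp5h: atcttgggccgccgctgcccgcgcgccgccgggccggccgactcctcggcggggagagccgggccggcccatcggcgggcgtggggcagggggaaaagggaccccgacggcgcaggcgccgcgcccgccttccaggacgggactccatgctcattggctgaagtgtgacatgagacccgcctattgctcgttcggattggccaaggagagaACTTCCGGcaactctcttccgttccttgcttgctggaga
Atp5md: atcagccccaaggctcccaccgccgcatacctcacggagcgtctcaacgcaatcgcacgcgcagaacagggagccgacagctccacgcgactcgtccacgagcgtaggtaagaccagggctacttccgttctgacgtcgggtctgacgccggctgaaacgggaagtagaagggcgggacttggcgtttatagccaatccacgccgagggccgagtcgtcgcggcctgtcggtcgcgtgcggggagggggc
Both NRF1 genes passed no test in tumour against tumour-bearing spleen, with log2 fold changes of -0.09 and -0.13, while Atp5h was lower and Atp5md higher. A match is a run of letters and was not tested as a binding site. The windows of the 73 genes had a median GC content of 58.5%, against 61.0% for tested genes and 52.8% for all genes.

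Other genes around the pathway were read from lists of general knowledge. Of 34 tested respiratory chain genes outside the name pattern, mostly assembly factors, 2 were higher and 6 lower in tumour against tumour-bearing spleen, or 5.88% and 17.6%, where 15.8% and 13.2% of all genes were. Coa3, an assembly factor of complex IV, stood at 146, 128, 174 and 142 CPM in tumour-bearing spleen and 77.9, 52.2, 73.3 and 73.2 CPM in tumour, with no overlap (log2 fold change -1.07, adjusted p = 2.93e-05). Coa4 and Bcs1l, which serve the assembly of complexes IV and III, were lower as well, with log2 fold changes of -1.14 and -1.14, and Sdhaf1, an assembly factor of complex II, was higher (log2 fold change 0.95, adjusted p = 0.00155). The carriers that bring phosphate and ADP to the ATP synthase and take ATP out are in the exchange and uncoupling list, of which 5 of 8 genes were higher, or 62.5% against 15.8% of all genes, and 0 lower. Slc25a3, the phosphate carrier, stood at 799, 748, 678 and 649.5 CPM in tumour-bearing spleen and 1262, 1410, 1249 and 1277 CPM in tumour, with no overlap (log2 fold change 0.85, adjusted p = 5.25e-05). The ADP/ATP carrier Slc25a4 (log2 fold change 0.66, adjusted p = 0.00341) was higher too. Against healthy spleen 5 were higher and 1 lower (16.5% and 14.0% of all genes were), the uncoupling protein Ucp2 (log2 fold change -0.60, adjusted p = 0.0258).

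Of 20 tested genes of the TCA cycle and pyruvate dehydrogenase, 1 was higher (5.0%) and 0 lower in tumour against tumour-bearing spleen, the succinyl-CoA ligase subunit Sucla2 (log2 fold change 0.52, adjusted p = 0.0282). Against healthy spleen the pyruvate carrier Mpc1 was higher and the mitochondrial isocitrate dehydrogenase Idh2 lower (log2 fold change -1.32, adjusted p = 0.000699). Among 13 regulators of mitochondrial genes, 3 were higher and 2 lower in tumour against tumour-bearing spleen, or 23.1% and 15.4% against the same 15.8% and 13.2% of all genes. Hif1a, the oxygen-regulated factor, stood at 26.7, 20.1, 14.9 and 20.2 CPM in tumour-bearing spleen and 59.0, 53.6, 46.9 and 40.9 CPM in tumour, with no overlap (log2 fold change 1.30, adjusted p = 0.00136). Myc (log2 fold change 0.83, adjusted p = 0.00473) and the GABP subunit gene Gabpb1 (log2 fold change 0.83, adjusted p = 0.00589) were also higher. The nuclear receptor gene Esrra, at 83.1, 121, 131 and 125 CPM in tumour-bearing spleen and 71.3, 73.9, 60.7 and 83.7 CPM in tumour with a slight overlap, was lower (log2 fold change -0.68, adjusted p = 0.00385). Between the spleens none of the genes of these 4 lists was called, where 1.58% of all genes were. With the side as a block 1 gene outside the name pattern and 2 of the exchange list were higher, 1 of the TCA list was higher and 1 lower, and no regulator was called, against 5.35% of all genes called higher.

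Some of these counts may include reads of other genes. In the GENCODE M21 annotation 29 of the 85 genes found there by symbol have an exon that overlaps another gene, 18 of them with a gene that is itself in the table. Pairs on opposite strands include Atp5d with Cbarp, Ndufa3 with Tfpt, Ndufs6 with Mrpl36, Ndufaf3 with Impdh2, Atp5a1 with Haus1 and Cox5a with Gm26631. Whether reads were counted by strand is not given in the sources used here, so for these genes the partners cannot be told apart. Many subunit genes also have processed pseudogenes, whose share in the counts was not tested.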

How the data were processed

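RNA of sorted NK cells was measured as 3' end counts in 11 libraries. The authors deposited raw counts per gene symbol, and the submitters' processing notes name bcl2fastq, STAR 2.4.2a, HTSeq and the build mm10, which is GRCm38. The annotation, strand setting and use of molecular identifiers are not given in the sources used here. Every listed gene had at least 6 counts in some library, so totals are sums over listed genes. In the header of the table a run of spaces stands in place of a tab between tumour replicates 3 and 4, and columns were read by position.

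Genes were filtered with filterByExpr, scaled by TMM (factors 0.9096 to 1.168) and fitted in edgeR 4.0.16 (R 4.3.3) on all 11 libraries by group alone, using the robust quasi-likelihood test with Benjamini-Hochberg adjustment over all genes tested in each of 3 contrasts. CPM use TMM library sizes. Alternatives included DESeq2 1.42.0, other scalings, no filter, left-out libraries, the library side as a block or as the only libraries, an offset for GC content and length, and the replicate number as a block. The fit was tested on simulated data. P-values measure the spread between these libraries, which may be technical.

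The members, gene lists and library sides were chosen with earlier results of these data known. Genes named were up to 10 called in each direction and contrast by size, main catalytic subunits, paralogs, Uqcrb and up to 3 per direction of each further list. Cox6c, Cox7c, Ndufa6, Ndufb2, Ndufs8, Uqcr10 and the genes named for library sides, motifs or overlaps were named after their values were seen. Same-numbered libraries correlated at -0.353 to 0.501 in their deviations from the group means (10 pairs) and others at -0.522 to 0.528 (30 pairs). For tumour with tumour-bearing spleen, replicates 1 to 4 gave -0.0471, 0.288, 0.00249 and 0.211, and differently numbered pairs -0.252 to 0.158. These ranges overlap, and the full sets include healthy mice and follow the library sides. They cannot show whether a spleen and a tumour came from the same mouse. Values of 2 genes of the lists are not reported here.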

Additional observations from a re-analysis of the deposited data

Results flagged for a closer look

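In 3 of the 70 sets of libraries examined for the named genes, 1 library stood far from the rest of its group, where chance alone marks about 1 in 20. The level of Uqcrfs1 in tumour-bearing spleen replicate 2 was 209.9 CPM, above the other 3 libraries at 198, 198 and 199 CPM, a small difference beside that between tumour and spleen. Atp5g2, one of the c subunit genes, stood at 7.62 CPM in tumour-bearing spleen replicate 1 and at 24.6, 27.8 and 26.8 CPM in the others. The muscle form Cox6a2 stood at 8.42 CPM in tumour replicate 3 and at 0.82, 1.45 and 1.90 CPM in the other tumour libraries, most of them under the limit of 3 counts. In the count table of sCAFs, fibroblasts sorted from such tumours, which no comparison here uses, Ndufa4l2, a relative of Ndufa4 known as a hypoxia-induced gene, had 14, 11 and 34 counts, with the lowest level at 6.28 CPM on library totals. It has no value in the NK table.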

How the results depend on the processing

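For tumour against tumour-bearing spleen (6 genes higher, 5 lower), the higher count was 3 with upper-quartile scaling, 11 with the GC and length offset, 3 against side A only and 12 against side B only. The lower count was 18 with upper-quartile scaling, 22 on library totals, 8 without the filter, 13 with only the 2 groups fitted, 8 with the replicate block, 2 against side A and 21 against side B. Leaving out 1 library gave 3 to 9 higher, 2 to 15 lower and medians of -0.156 to -0.00407. The GC and length offset turned the median to 0.0131.

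For tumour against healthy spleen (15 higher, 1 lower), library totals gave 7 higher and 7 lower with a median of -0.0448. The lower count was 5 with upper-quartile scaling, 2 with RLE size factors, 2 without the filter, 2 with only the 2 groups, 3 with the replicate block, 5 with the GC and length offset, 0 against side A and 5 against side B, and the median was 0.395 against side A, 0.0454 against side B and 0.0501 with upper-quartile scaling. Leaving out 1 library gave 10 to 16 higher, 0 to 4 lower and medians of 0.054 to 0.236. Against the side A library alone Atp5g1 was higher in tumour, by 1.03 on the log2 scale, where it was at -0.16 with all libraries.

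Between the spleens (0 called), DESeq2 called 2 higher, the side block 26 and the side block with the GC and length offset 8 higher and 1 lower, with medians of 0.0763 for the offset alone and 0.0782 with both. Leaving out 1 library gave 0 and 0 calls and medians of 0.168 to 0.304, and within the side block 3 to 27 higher (3 and 13 without healthy replicates 1 and 2, 25 and 20 without tumour-bearing replicates 1 and 4), 0 lower and medians of 0.211 to 0.292. The offset and left-out libraries within the side block were added after seeing the data.

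In any of the 3 comparisons 21 genes were called, 19 counting subunits alone, and 15 to 27 with 1 library left out. The counts of this section are given without the share of all genes called under the same setting. They show how the number moved with the setting, not whether it was above or below that share. The replicate block gave 8 higher and 8 lower, 17 higher and 3 lower, and 0 and 0 in the 3 comparisons. The causes of these shifts were not tested. Library totals moved the median of all genes by -0.122 and -0.197 in the tumour comparisons. Genes near the limit of 3 counts, such as Cox6a2, Cox6b2, Cox7a1 and Ndufaf6, cannot show small differences at this depth.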

Other observations

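The same name rule found 90 genes among the 12235 of the sCAF (cancer-associated fibroblast) count table, of which 87 were also in the NK table. Without Uqcrb they made up 2.31%, 2.31% and 2.16% of the counts in the 3 libraries. The tables were counted separately and were not compared by a test. Cox4i2, the form of subunit 4 known from lung, had 1, 3 and 6 counts there, and the complex I subunit gene Ndufa11 had 2, 2 and 2. Uqcrb, which parts the NK spleen libraries, had 105, 56 and 17 counts in the fibroblast libraries.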
